A study of Homo sapiens with 6 samples.

Results

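The short arm of human chromosome 19 ends in band 19p13.3, and the RNA counts of its first 7000000 bases on GRCh38 were described here exon bin by exon bin and gene by gene. Exon bins are the pieces that result when a gene's exons are split at every exon edge. All bins of chromosome 19 that end at or below 7000000 were taken, which gave 5689 of the 597973 bins in the tables, under 342 of 54848 gene identifiers. The first started at 60951 and the last ended at 6997872. These bins are called the band below, and its limit is a cut-off and not an edge taken from a cytogenetic map. The band was chosen by the ratios of these same libraries, which had shown a lower stretch near its outer end and higher genes further in. The comparison of the genotypes in the band is therefore given as a description. Genes were called in a fit over the whole table, and counts of called genes stand beside the share called among all genes. Since the same contrast chose the band, these calls are no independent evidence about its members.

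HEK293 cells are an immortal line from human embryonic kidney. RNA came from 3 samples of the wild-type (WT) line and 3 of a HEK293 line labelled MUL1(-/-), in which the gene for a mitochondrial E3 ubiquitin ligase was disrupted with CRISPR-Cas9. Both were grown in DMEM with 10% fetal calf serum, glutamine and antibiotics, and neither carried another listed allele or treatment. The study's protein blots used independent clones of both lines, but the labels name no clone and no separate cultures for the RNA, so the genotype cannot be told apart from the history of the line, and the spread between the samples may be technical. MUL1 itself, on chromosome 1, was counted at 15.4, 15.2 and 19.01 CPM in WT and at 18.7, 16.6 and 19.2 CPM in the samples labelled MUL1(-/-) (log2 fold change 0.14, SE 0.10). CPM is the count scaled to a library of 1000000 counts after TMM normalization. The MUL1 count was not lower under that label, so it does not check the labels, and each direction below follows the label as given.

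Chromosome 19 is the human chromosome most densely packed with genes, and 19p13.3 holds many short, GC-rich housekeeping genes side by side. Its outer part carries genes as different as GPX4, the selenoenzyme that reduces lipid hydroperoxides in membranes, STK11, the kinase that activates AMPK, and RPS15, a protein of the small ribosomal subunit. Further toward the centromere lie PIP5K1C, which makes a phosphoinositide of the cell membrane, the elongation factor gene EEF2, and the G protein genes GNA11 and GNA15.

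The stretches below show what the reads were counted on in 4 genes that mark the course of the band, in coding sequence of GENCODE 29 transcripts (GRCh38). The first is the GPX4 exon with the selenocysteine codon (chr19:1105366-1105510, plus strand), which has an exon bin of its own and is in capitals. The second is from the first coding exon of MEX3D (chr19:1567464-1567763, minus strand), where capitals mark a bin that was lower and the small letters before them belong to the neighbouring bin, which was not. The third is the first coding exon of MBD3 (chr19:1592522-1592631, minus strand), the next gene along the chromosome, and the fourth is the fourth coding exon of PIP5K1C (chr19:3661871-3662001, minus strand). Capitals in those exons mark a bin that was higher, and the neighbouring bins in small letters also had positive log2 fold changes.
GPX4: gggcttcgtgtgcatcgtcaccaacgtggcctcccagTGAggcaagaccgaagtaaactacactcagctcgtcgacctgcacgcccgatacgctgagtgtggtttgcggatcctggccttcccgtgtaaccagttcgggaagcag
MEX3D: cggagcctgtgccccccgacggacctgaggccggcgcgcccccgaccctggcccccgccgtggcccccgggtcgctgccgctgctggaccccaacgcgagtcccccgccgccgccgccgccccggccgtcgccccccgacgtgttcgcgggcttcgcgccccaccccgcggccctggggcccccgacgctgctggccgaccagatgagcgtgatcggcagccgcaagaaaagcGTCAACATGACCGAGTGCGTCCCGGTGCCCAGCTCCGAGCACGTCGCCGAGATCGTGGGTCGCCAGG
MBD3: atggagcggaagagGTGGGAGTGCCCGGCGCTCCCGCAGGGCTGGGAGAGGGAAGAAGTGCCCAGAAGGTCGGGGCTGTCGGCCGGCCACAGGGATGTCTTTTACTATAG
PIP5K1C: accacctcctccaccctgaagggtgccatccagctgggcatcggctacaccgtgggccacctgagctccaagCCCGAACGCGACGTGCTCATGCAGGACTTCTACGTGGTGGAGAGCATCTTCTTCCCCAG

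The upstream regions of the same genes follow, from RefSeq (GRCh38.p14), without bases that lie in an annotated exon. Capitals mark matches, on either strand, to ACGTG and to TGACNNNGC. ACGTG is a form of the core that hypoxia-inducible factors bind, and other forms of it were not searched. TGACNNNGC is the core of the antioxidant response element. The 182 bases of GPX4 (chr19:1103744-1103925) held 1 match to ACGTG. The 250 bases of MEX3D (chr19:1568326-1568575) held 4 matches to ACGTG, since CACGTG reads the same on both strands, and 1 to TGACNNNGC. No match was found in the 250 bases of MBD3 (chr19:1592866-1593115) or the 239 bases of PIP5K1C (chr19:3700480-3700718), which says only that these letters are not in these windows.
GPX4 upstream: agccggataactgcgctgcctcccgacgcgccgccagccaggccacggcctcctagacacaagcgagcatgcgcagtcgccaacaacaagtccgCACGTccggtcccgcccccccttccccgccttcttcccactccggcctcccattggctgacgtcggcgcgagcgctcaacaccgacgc
MEX3D upstream: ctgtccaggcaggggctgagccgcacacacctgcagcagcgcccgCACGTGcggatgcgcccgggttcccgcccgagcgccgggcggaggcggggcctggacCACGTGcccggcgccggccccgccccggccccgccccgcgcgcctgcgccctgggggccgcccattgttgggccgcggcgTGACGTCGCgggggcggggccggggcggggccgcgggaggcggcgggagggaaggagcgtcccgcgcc
MBD3 upstream: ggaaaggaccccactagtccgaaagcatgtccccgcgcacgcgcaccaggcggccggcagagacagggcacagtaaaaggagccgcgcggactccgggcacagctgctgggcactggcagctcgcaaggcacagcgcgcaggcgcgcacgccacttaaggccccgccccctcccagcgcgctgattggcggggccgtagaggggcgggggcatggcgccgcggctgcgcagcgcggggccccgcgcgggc
PIP5K1C upstream: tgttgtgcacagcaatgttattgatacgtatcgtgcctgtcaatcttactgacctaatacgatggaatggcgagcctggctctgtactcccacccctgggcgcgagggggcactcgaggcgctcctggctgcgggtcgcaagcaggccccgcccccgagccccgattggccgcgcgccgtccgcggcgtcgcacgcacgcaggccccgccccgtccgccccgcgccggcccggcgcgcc

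Whole promoter windows, from 250 bases before to 50 bases after the start, were matched for 165 of the 280 tested genes of the band. ACGTG occurred in 29.7% of them and in 21.4% of all 35116 windows of the table, and TGACNNNGC in 19.4% and 13.3%. The windows of the band were also richer in G and C, with a median of 68.7% against 58.7%. Within the band, ACGTG was found in 26.4% of the 53 windows on the lower side of the sign change located below and in 31.25% of the 112 windows on its higher side, and TGACNNNGC in 17.0% and 20.5%. A match is a string of letters and not evidence of a bound factor.

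The 5689 bins had a median length of 82 bases, from 1 to 9593, and 151 of them held no read in any library. The counting program is not named in the sources used here, and its behaviour was read from the tables. Bins shorter than any read hold many reads, which neighbouring bins then share: the 3-base selenocysteine bin of GPX4 held 8943, 9121 and 7398 reads in WT and 1840, 1765 and 1744 in the samples labelled MUL1(-/-). Where a plus-strand and a minus-strand bin had the same start and end, 23 pairs held reads and 23 of these had equal counts in all 6 libraries, so the counts were taken as made without strand. Of the bins of the band, 8.86% were touched by another gene on either strand. Summing bins gave counts for 360 genes, of which 280 passed the filter on low counts, 188 of them protein-coding and 46 antisense. A further 80 genes did not pass and are not part of the counts below, and 8 of these had no read at all. The filter asks for reads in as many libraries as 1 genotype has, so a gene present in 1 genotype alone could pass. Over all bins the band took 2.02% to 2.21% of the counts of a WT library and 2.08% to 2.20% of those of a library labelled MUL1(-/-), and these ranges overlapped.

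The median tested gene of the band had a mean of 790.5 counts per library. The chi-square of any 2 samples with the same label was 2.75 to 9.51 times what counting error alone gives, so none was taken as the same library deposited again. All 6 HEK293 markers examined (VIM, PAX2, LHX1, NEFM, KRT8 and KRT18) were detected in every library, at 1.38 CPM or more. Their levels were not the same in both genotypes: PAX2 had a mean of 9.45 CPM in WT and 2.72 CPM in the samples labelled MUL1(-/-) (log2 fold change -1.80), KRT8 had 324 and 170 CPM (-0.93), LHX1 stood at -0.55, VIM at -0.34, KRT18 at 0.01 and NEFM at 1.06. Among genes of other cell types, CD3E of T cells was at 0 to 0.00807 CPM, ALB of hepatocytes at 0.0707 to 0.264 CPM and PTPRC of blood cells at 0.0565 to 0.415 CPM, while the fibroblast gene COL1A1 reached 15.0 to 24.7 CPM. PTPRC was higher in the samples labelled MUL1(-/-), at 0.292 to 0.415 CPM, than in WT, at 0.0565 to 0.165 CPM, and the part of these marker differences in the values of the band was not tested. In bulk RNA, fewer cells of a type and less RNA per cell cannot be told apart.

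Along the band the genes fell into a lower outer part and a higher inner part. Of the 280 tested genes, 95 had a negative and 185 a positive log2 fold change of MUL1(-/-) over WT, against a median of -0.01 over all 25125 tested genes, of which 51.1% were negative. In edgeR's quasi-likelihood fit 133 genes of the band were called higher at an adjusted p under 0.05, while 18.8% of all tested genes were called in that direction, and 64 were called lower, beside 18.7% of all. With an absolute log2 fold change above 1 as well, 27 were higher and 36 lower, beside 4.23% and 3.87% of all tested genes. The 3 values of one genotype did not overlap the 3 of the other in 217 of the 280 genes, and in 48.5% of all tested genes. Since the band was selected on this contrast, nothing is read from these shares.

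Taken by bin, the same order was seen. Of the 4028 bins that could be tested, 1774 were called higher and 937 lower, beside 15.4% and 14.8% of the 330941 tested bins. Within a gene the bins mostly moved together: of 150 genes with at least 5 tested bins, all bins had the same sign in 92, at least 80% of them in 140, and under 60% in 3. The median interquartile range of the log2 fold change among the bins of a gene was 0.16. Neighbouring bins that share reads are not independent, so these counts describe the tables and are not a number of separate measurements.

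In blocks of 1 Mb by gene start, the median log2 fold change turned from negative to positive between the second and the third block. It was -0.39 over the 42 genes of the first block and -0.62 over the 63 genes of the second. It was then 0.50 over the 40 genes of the third block, 0.73 over 35, 0.56 over 48, 0.53 over 25 and 0.64 over the last 27. Negative values were found for 33 genes in the first block and 47 in the second, and for 1 to 4 genes in each of the others. The 3 libraries labelled MUL1(-/-), each set against the WT mean, gave -0.38, -0.50 and -0.52 in the first block and 0.71, 0.63 and 0.80 in the fourth, the block that holds PIP5K1C.

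**Figure D1:**
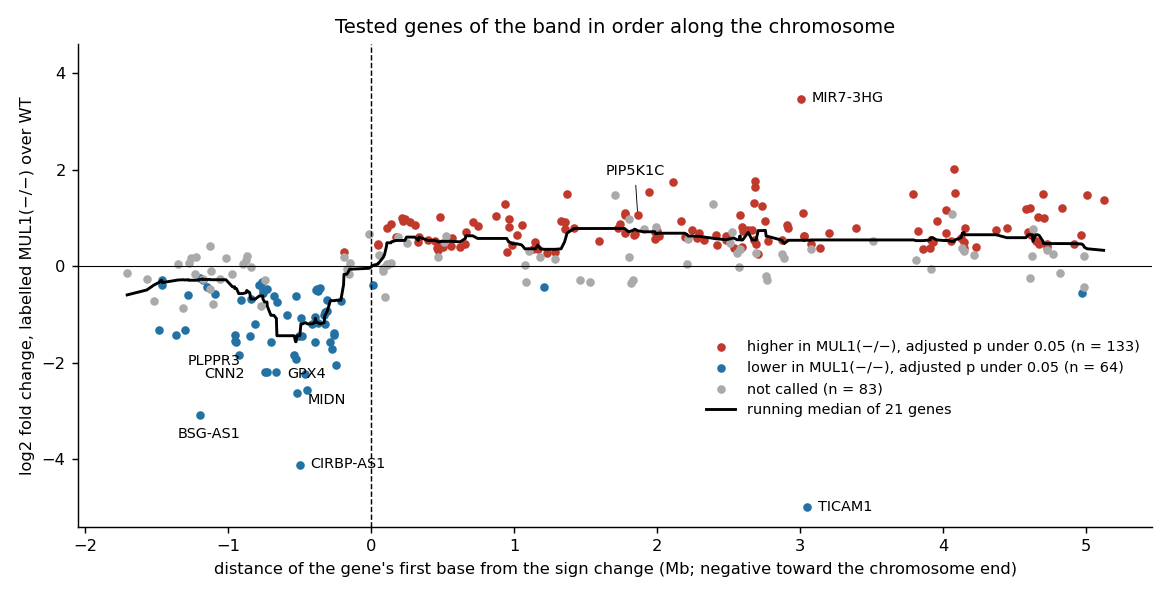
Log2 fold change of MUL1(-/-) over WT for each of the 280 tested genes (points) against the distance of its first base from the sign change, in Mb, with the running median of 21 genes (line); colours show genes called higher (133), lower (64) or not called (83). The line lies below 0 on the left of the dashed sign change and above 0 on its right, where TICAM1 at -4.99 stands far from its neighbours.

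The place of the sign change was taken from the running median of 21 genes in order of their starts. It crossed 0 only 1 time within the band, between ONECUT3 (1752373 to 1780988) and ATP8B3 (1782075 to 1812276), where it went from -0.05 to 0.02 and the midpoint of the gene starts was 1767224. Each library labelled MUL1(-/-) also gave a single crossing against the WT mean, at 1767224, 1856324.5 and 1684432.5, with an SD of 86.0 kb (n = 3). The running median of these libraries reached -1.49, -1.47 and -1.47 at its lowest and 0.76, 0.66 and 0.87 at its highest. Each WT library set against the other WT libraries stayed between -0.17 and 0.20 over the whole band. The band was chosen for these stretches, so the distance between the profiles is a description.

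A zero crossing is a smoothed position, and the values around it were small. The 3 tested genes before it were TCF3 at -0.17 (SE 0.07), RNU6-1223P at 0.07 (SE 0.37) and ONECUT3 at 0.67 (SE 0.33), and none of them was called. TCF3, a helix-loop-helix transcription factor gene, had 309, 279 and 285 CPM in WT and 263, 252 and 262 CPM in MUL1(-/-). ONECUT3, a homeobox gene, was at 0.127 to 0.173 CPM in WT and 0.153 to 0.280 CPM in MUL1(-/-), and these ranges overlapped. The 3 genes after the crossing were ATP8B3 at -0.39 (SE 0.14), REXO1 at 0.43 (SE 0.09) and the antisense gene ENSG00000267007 at 0.46 (SE 0.14). ATP8B3, a phospholipid flippase gene, was at 3.03, 2.59 and 2.78 CPM in WT and at 2.24, 2.32 and 1.85 CPM in MUL1(-/-), with all 13 tested bins negative, so it was called lower although it lies on the higher side. REXO1, a gene for an RNA exonuclease, was at 50.1 to 57.7 CPM in WT and 65.6 to 82.6 CPM in MUL1(-/-), and all 34 of its tested bins were positive. All reads of ENSG00000267007 fell in bins that REXO1 or another gene also covers, so the antisense gene is not a separate observation. Calls beside the crossing depended on the processing and on single libraries. With only the most counted bin of each gene, TCF3 was called (-0.50) and ATP8B3 was not (-0.23). TCF3 was also called with a filter of 1 CPM in 3 samples (-0.16). With library totals in place of TMM (-0.32) or without a filter (-0.36), ATP8B3 was not called. ATP8B3 was not called without the first WT sample (-0.33) or without the first (-0.41) or the third (-0.30) sample labelled MUL1(-/-), ENSG00000267007 was not called without the second WT sample (0.41) or the third labelled MUL1(-/-) (0.30), TCF3 was called without the third WT sample (-0.19), and ONECUT3 was called without the third labelled MUL1(-/-) (0.90).

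A partition of the ordered genes into runs with the smallest sum of squares, which seeks the sharpest step and does no smoothing, put the change 203 kb further out. With 2 runs the boundary fell between MEX3D (1554669 to 1568058) and MBD3 (1573596 to 1592801), which are 5537 bases apart, and partitions with the smallest sum of absolute deviations gave the same boundary for 2, 3 and 4 runs. The 4 runs of that partition were used to describe the band below, a choice made after the values were seen, and MEX3D, MBD3 and ABHD17A are named for their place at its boundaries.

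MEX3D and MBD3 showed the step most closely, since the log2 fold changes of their bins changed sign within a few kb. MEX3D codes for an RNA-binding ubiquitin ligase, and MBD3 for a subunit of the NuRD chromatin-remodelling complex. MEX3D had 25.8, 24.4 and 26.0 CPM in WT and 16.4, 14.7 and 15.3 CPM in MUL1(-/-), a log2 fold change of -0.72 (SE 0.08). In order along the chromosome its 5 tested bins had log2 fold changes of -0.99, -0.77, -0.87, -0.61 and 0.30. The fourth bin, from 1567464 to 1567530, is the one in capitals in the MEX3D sequence and held 211, 246 and 230 reads in WT and 151, 131 and 145 in MUL1(-/-). The fifth, from 1567531 to 1568058, is the 5′ end of this minus-strand gene and held 340, 275 and 316 reads in WT and 440, 303 and 345 in MUL1(-/-). The genotypes did not overlap in the fourth bin and overlapped in the fifth. These bins abut and a read across their edge counts in both.

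MBD3 had 113, 105 and 101 CPM in WT and 126, 112 and 154 CPM in MUL1(-/-), a log2 fold change of 0.30 (SE 0.10), and the lowest sample labelled MUL1(-/-) lay within the WT range. Of its 20 tested bins 19 were positive, from 0.06 to 1.28, and 1 was negative at -0.55 with 6 to 15 reads per library. The coding bin in capitals in the MBD3 sequence, from 1592522 to 1592617, held 138, 170 and 121 reads in WT and 188, 185 and 262 in MUL1(-/-). Reads in 35.8% of the gene's count could also belong to a gene on the opposite strand. UQCR11, a subunit gene of respiratory complex III and the next coding gene, lay near 0 with a log2 fold change of -0.07 (SE 0.07) and 5 negative and 3 positive bins.

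The outermost run, from WASH5P to RNU6-2 (60951 to 1021628), held 46 tested genes with a median log2 fold change of -0.39, which is 76.4% of the WT level. Of these, 37 were negative, with 23 called lower, beside 18.7% of all tested genes, and 9 were positive without a call, from 0.04 to 0.41. The genes of this run were unequal. PLPPR3, a brain-enriched member of the phospholipid phosphatase-related family, had 11.2, 9.40 and 9.25 CPM in WT and 3.41, 3.16 and 3.57 CPM in MUL1(-/-), 34.0% of WT (log2 fold change -1.56, SE 0.11), and all 15 tested bins were negative. POLRMT, the mitochondrial RNA polymerase, was at -0.43 (SE 0.08), PTBP1, a splicing repressor, at -0.16 (SE 0.09) and MED16, a Mediator subunit, at 0.04 (SE 0.10).

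BSG-AS1, the antisense RNA gene at the basigin locus, was the lowest gene of the outer run. It had 2.91, 2.75 and 2.25 CPM in WT and 0.395, 0.296 and 0.242 CPM in MUL1(-/-), 11.8% of WT (log2 fold change -3.08, SE 0.20). All 6 of its tested bins were negative, from -4.21 to -0.80. The bins that another gene also covers held 34.2% of its reads, and strand was not used in counting, so part of its signal may come from that gene. In bins that no other gene touches, the log2 fold change of BSG-AS1 was -2.93. Its groups did not overlap.

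The neutrophil granule genes also lie in the outer run. AZU1 had 0.362, 0.219 and 0.191 CPM in WT and 0.103, 0.0879 and 0.0646 CPM in MUL1(-/-), and PRTN3 had 0.346, 0.283 and 0.611 CPM against 0.166, 0.144 and 0.0323 CPM. AZU1 codes for a protease homologue and PRTN3 for a protease of neutrophil granules, and here they rested on 4 to 77 counts per library. Of the list of 6 granule and complement genes, 3 were called lower (AZU1, PRTN3 and CFD), 1 higher (C3, in the innermost run, at 0.47) and 1 not called (GZMM at 0.19, SE 0.46), and ELANE did not pass the filter. Among all tested genes 18.7% were called lower and 18.8% higher. The median of the 5 tested genes was -0.70, against -0.39 over the outermost run and -0.01 over all tested genes. Most of the list lies in the stretch chosen for being lower, so nothing is read from its count or its median.

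The second run, from CNN2 to MEX3D (1026581 to 1568058), held genes of 1 direction but of unequal size, and the partition that made it sought like values. All 37 tested genes were negative, all 37 were called lower and in all 37 the genotypes did not overlap, while 18.7% of all tested genes were called lower and 48.5% did not overlap. The median log2 fold change was -1.20, or 43.6% of the WT level, with quartiles of -1.85 and -0.74 and a highest value of -0.46. Of its 766 tested bins 758 were negative and 8 positive. The medians of the 3 libraries labelled MUL1(-/-) were -1.27, -1.24 and -1.32, and those of the WT libraries -0.07 to 0.10. The 21 plus-strand genes had a median of -1.43 and the 16 minus-strand genes of -1.11. Strand was not used in counting, and all 6 antisense genes of the run had most of their reads in bins that another gene also covers. The medians of the strands are thus not fully separate.

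GPX4 lies near the outer end of this run, 5 genes inward of CNN2. Its level was 1377, 1251 and 1155 CPM in WT and 283, 267 and 273 CPM in MUL1(-/-), which is 21.7% of WT (log2 fold change -2.20, SE 0.07). All 32 tested bins were negative, from -3.06 to -1.93, and the bin of the selenocysteine codon stood at -2.17. The lowest WT sample was 4.08 times the highest sample labelled MUL1(-/-). CNN2, which codes for the actin-binding protein calponin 2, opened the run with nearly the same ratio, at 127, 112 and 107 CPM in WT and 25.5, 23.8 and 26.0 CPM in MUL1(-/-) (log2 fold change -2.20, SE 0.08, 26 of 26 bins negative).

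CIRBP-AS1 and MIDN had the lowest log2 fold changes of the run among genes that averaged 1 CPM or more, and they lie close to each other. MIDN, the gene of midnolin, which brings nuclear proteins to the proteasome, had 210, 195 and 170 CPM in WT and 28.5, 27.3 and 37.3 CPM in MUL1(-/-), or 16.2% of WT (log2 fold change -2.63, SE 0.11, 17 of 17 bins negative). CIRBP, a cold-inducible RNA-binding protein gene, had 608, 567 and 548 CPM in WT and 210, 215 and 208 CPM in MUL1(-/-) (log2 fold change -1.44, SE 0.07), and all 97 of its tested bins were negative. The gene antisense to it, CIRBP-AS1, had 26.0, 23.9 and 20.5 CPM in WT and 1.43, 1.16 and 1.48 CPM in MUL1(-/-), or 5.78% of WT (log2 fold change -4.11, SE 0.13). Bins that CIRBP or another gene also covers held 53.3% of the CIRBP-AS1 reads, so the pair is not cleanly separated by these counts. In bins that no other gene touches, the log2 fold change of CIRBP-AS1 was -4.31.

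Genes with very different roles in the run shared the direction but not the size. RPS15 was at 3349, 3083 and 2976 CPM in WT and 1585, 1510 and 1592 CPM in MUL1(-/-) (49.8% of WT, 30 of 30 bins negative). STK11 was at 259, 238 and 199 CPM in WT and 108, 107 and 127 CPM in MUL1(-/-) (log2 fold change -1.02, SE 0.09, 35 of 35 bins negative). The respiratory chain genes stood closer to 0: ATP5F1D, a subunit of ATP synthase, stood at -0.62 (SE 0.09) and NDUFS7, a core subunit of complex I, at -0.50 (SE 0.09). POLR2E, a subunit shared by the nuclear RNA polymerases, was at -0.62 (SE 0.07), DAZAP1, an RNA-binding protein gene, at -0.46 (SE 0.06), and SBNO2, a transcriptional corepressor gene, at -0.74 (SE 0.09).

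Between the step at MEX3D and the inner run lay 15 genes, from MBD3 to ENSG00000267232 (1573596 to 1876169), with a median log2 fold change of 0.04 and values from -0.63 to 0.67. Of these, 6 were negative and 9 positive, 3 were called higher and 1 lower, beside 18.8% and 18.7% of all tested genes, and 82 of 181 tested bins were negative. Their medians in the 3 libraries labelled MUL1(-/-) were 0.10, -0.13 and 0.09, and those of the WT libraries lay between -0.08 and 0.09. The zero crossing of the running median lies inside this run.

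The innermost run, from ABHD17A to ADGRE1 (1876810 to 6940459), held 182 tested genes, of which 167 were positive, 130 were called higher and 3 lower, beside 18.8% and 18.7% of all tested genes. Its median log2 fold change was 0.60, or 1.52-fold, with quartiles of 0.37 and 0.85. Of its 2548 tested bins 2367 were positive. The medians of the 3 libraries labelled MUL1(-/-) were 0.62, 0.54 and 0.61, and those of the WT libraries -0.03 to 0.04. ABHD17A, which codes for a depalmitoylating enzyme, opened the run at 57.7, 57.0 and 53.7 CPM in WT and 96.8, 89.4 and 106 CPM in MUL1(-/-) (log2 fold change 0.80, SE 0.08, 18 of 18 bins positive).

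PIP5K1C is in this run, on the minus strand from 3630183 to 3700479. Its level was 17.8, 17.3 and 19.5 CPM in WT and 38.5, 33.9 and 41.5 CPM in MUL1(-/-), 2.09-fold higher (log2 fold change 1.06, SE 0.09). All 27 tested bins were positive, from 0.56 to 1.47, and the coding bin in capitals in its sequence held 71, 75 and 65 reads in WT and 155, 121 and 155 in MUL1(-/-). TJP3, the neighbouring tight junction gene, was at 1.35, 0.884 and 1.56 CPM in WT and 3.90, 4.17 and 2.88 CPM in MUL1(-/-) (log2 fold change 1.53, SE 0.19), with 10 of 10 bins positive. The genotypes did not overlap in either gene.

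Signalling genes made up much of the list of kinases, G proteins and phosphoinositide enzymes on the higher side. Of its 11 genes, 10 were tested, 8 were called higher, 1 lower (STK11) and 1 not called (TBXA2R, the thromboxane receptor, at -0.30, SE 0.15), and S1PR4 did not pass the filter. Of all tested genes 18.8% were called higher and 18.7% lower, and since most of the list lies in the stretch chosen for being higher, nothing is read from its count. MKNK2, a kinase of the translation factor eIF4E, had 75.6, 71.1 and 70.6 CPM in WT and 147, 127 and 135 CPM in MUL1(-/-) (log2 fold change 0.91, SE 0.07). GNA11, a G protein alpha subunit of the Gq class, had 49.1, 46.2 and 50.4 CPM in WT and 92.7, 85.4 and 99.0 CPM in MUL1(-/-), although 58.4% of its count lay in bins that another gene also covers. The list's median was 0.61, while the chromatin and ubiquitin-like modifier list, with 8 of 10 genes called higher and SBNO2 called lower beside the same shares, had a median of 0.60. HMG20B, a subunit of a histone demethylase complex, was at 0.20 (SE 0.08) and was not called, and BTBD2, a BTB domain protein gene, was the highest of that list at 0.99 (SE 0.09).

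Some lists span the zero crossing, which was itself placed from the values of these genes. Among 13 mitochondrial protein genes, 4 of the 5 outward of the crossing were called lower (GPX4, ATP5F1D, NDUFS7 and POLRMT) and UQCR11, which lies between the step and the crossing, was not called, whereas 7 of the 8 inward of it were called higher and ALKBH7 was not, at -0.24 (SE 0.12). Of all tested genes 18.7% were called lower and 18.8% higher, and the same shares stand beside the lists that follow. The higher ones included MRPL54, a protein of the mitochondrial ribosome, at 0.73 (SE 0.09), CLPP, the matrix protease, at 0.70 (SE 0.07) and LONP1, the other matrix protease, at 0.49 (SE 0.10). Among 15 genes of RNA processing and transcription, 4 of 7 outward of the crossing were called lower and 7 of 8 inward of it were called higher, with KLF16 not called at -0.05 (SE 0.09). Of 6 translation genes RPS15 was lower, DOHH, MRPL54, DUS3L and RPL36 were higher at 0.37 to 0.78, and EEF2 was not called.

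EEF2 was an exception in size within the inner run. The elongation factor gene had 4129, 3696 and 2930 CPM in WT and 3732, 3702 and 3604 CPM in MUL1(-/-), a log2 fold change of 0.04 (SE 0.09), and the genotypes overlapped. Of its 29 tested bins 28 were positive, from a lowest of -0.32 to a highest of 0.40. Of the 7 zinc finger genes of the band, 3 were called higher, beside 18.8% of all tested genes (ZNF554 at 0.84, ZNF57 at 0.35 and ZNF77 at 0.36), ZNF555 at 0.03 and ZNF556 at 0.31 were not called, and ZFR2 and ZNRF4 did not pass the filter.

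TICAM1 stood apart from the whole inner run. It codes for the adaptor TRIF of Toll-like receptor 3, lies from 4815932 to 4831704, and had 4.98, 4.36 and 3.94 CPM in WT and 0.0632, 0.120 and 0.234 CPM in MUL1(-/-), or 3.15% of WT (log2 fold change -4.99, SE 0.26). Without the third sample labelled MUL1(-/-) it was -5.58. All 16 tested bins were negative, from -5.58 to -3.74, between neighbours that were higher. It was the lowest of the 280 tested genes of the band by log2 fold change. In the innermost run 15 genes were negative, and only TICAM1, TLE6 and TRIP10 were called lower. TLE6 at -0.43 (SE 0.13) and TRIP10 at -0.55 (SE 0.13), both named after their values were seen, changed far less.

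The highest gene of the band was MIR7-3HG, a noncoding host gene, whose end lies 43.4 kb outward of TICAM1. It had 0.173, 0.0990 and 0.365 CPM in WT and 3.28, 1.93 and 1.77 CPM in MUL1(-/-), on 14 to 46 and 219 to 415 counts, or 11.1-fold higher (log2 fold change 3.47, SE 0.34). Without the third WT sample, or with its most counted bin alone, the log2 fold change was 4.10. All 8 tested bins were positive, from 2.51 to 4.95. The genotypes were far apart, and the 3 samples labelled MUL1(-/-) were themselves unequal.

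MIR7-3HG carries the hairpin of miR-7, and the deposited counts measure the long host RNA and not the mature form. The row of the hairpin MIR7-3 itself held 1, 0 and 0 reads in WT and 0, 0 and 0 in MUL1(-/-), which is under the floor of 3 counts, so nothing can be said of it at this depth. Reads on the rows of MIR3187 and MIR4746 did differ, with 85, 53 and 54 against 23, 17 and 28 reads and 28, 46 and 36 against 78, 71 and 111 reads, but 100% of each fell in bins that a longer gene also covers. Each followed the direction of its place in the band. The mature forms from RefSeq (GRCh38.p14) are given to show which seeds (bases 2 to 8, in capitals) these loci carry, and the 3 seeds differ.
hsa-miR-7-5p: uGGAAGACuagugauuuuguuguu
hsa-miR-3187-3p: uUGGCCAUggggcugcgcgg
hsa-miR-4746-5p: cCGGUCCCaggagaaccugcaga

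Among genes that averaged 1 CPM or more, the others of the 5 highest were TINCR, TJP3 and a pair of antisense or unclassified genes. TINCR, an epidermal differentiation gene first described as noncoding, had 0.535, 0.615 and 0.730 CPM in WT and 2.07, 1.72 and 1.52 CPM in MUL1(-/-) (log2 fold change 1.50, SE 0.18). ENSG00000267030 at 1.77 (SE 0.18) and ENSG00000280239 at 1.63 (SE 0.12) lie between 4447304 and 4450836, and all of their reads fell in bins that another gene also covers. Their values are thus not separate from that gene's. Of 46 tested antisense genes in the band, 38 had most of their reads in bins of that kind.

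**Figure D2:**
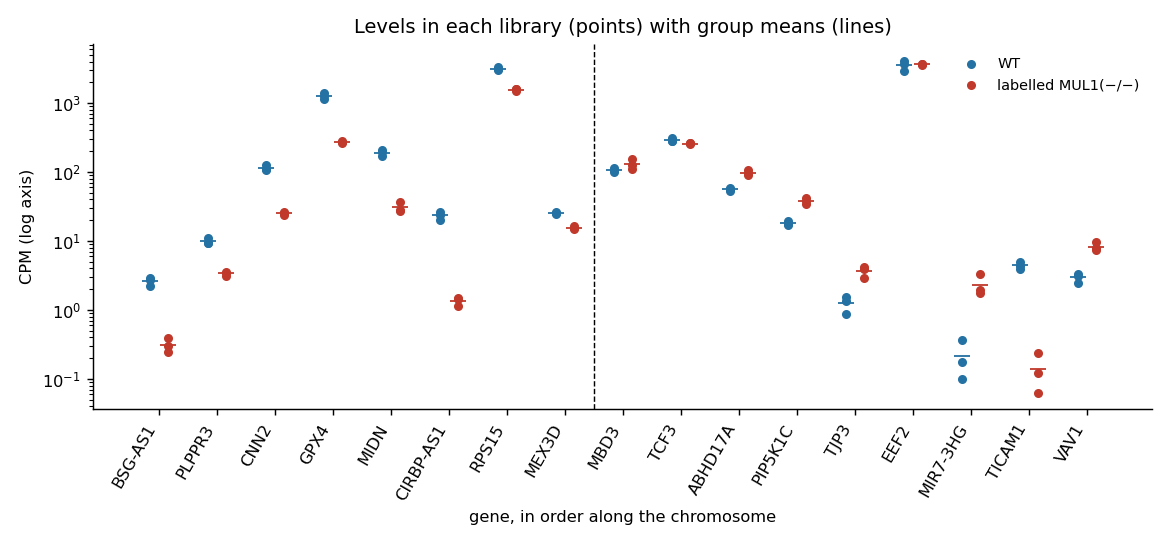
CPM on a log axis of 17 genes in order along the chromosome, with each library as a point and the group mean as a line, WT in blue and the samples labelled MUL1(-/-) in red; the dashed line is the step between MEX3D and MBD3. All 8 genes left of the line are lower in MUL1(-/-), and right of it EEF2 and MBD3 overlap, TICAM1 and, without a call, TCF3 lie lower, and the others lie higher.

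Level and base composition were compared between the sides. Genes that averaged 1 CPM or more had a median log2 fold change of -0.62 (64 genes) on the lower side of the zero crossing and 0.53 (138 genes) on the higher side, and genes below 1 CPM had -0.83 (25 genes) and 0.75 (53 genes). The longest transcripts had a median GC content of 62.9% on the lower and 60.2% on the higher side, and the promoter windows had 73.7% (53 windows) and 66.7% (112 windows), so both were richer in G and C on the lower side. The part of base composition in the log2 fold changes was not tested. Across the 3354 tested genes of the genome with 60% GC or more, the median log2 fold change was -0.01. Across the genes of the band, which share their libraries, the log2 fold change and the GC content had a Pearson r of -0.12 (280 genes), and the log2 fold change and the WT level had an r of -0.13 (202 genes with at least 1 CPM), given as descriptions only.

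The cut-off at 7000000 did not coincide with a change. The last bins inside belonged to the pseudogene ADGRE4P and held no reads, and the first bin outside, from 7005012 to 7006074, held 0, 0 and 0 reads in WT and 5, 1 and 3 in MUL1(-/-). The last tested genes inside were VAV1 at 1.48 (SE 0.14) and ADGRE1 at 1.36 (SE 0.30), and the first outside were ZNF557 at 0.75 (SE 0.10) and INSR at 0.60 (SE 0.08). VAV1, a guanine nucleotide exchange factor of blood cells, had 3.16, 3.33 and 2.47 CPM in WT and 7.84, 9.60 and 7.48 CPM in MUL1(-/-). Beyond the band the running median stayed above 0 as far as GIPC1 and next fell below it before SNRPGP15, whose starts are 14477760 and 14489388.

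Set beside other chromosomes, the band held the lowest running median of chromosome 19, at -1.57, and the lowest on chromosome 1 was -0.90. The highest running median of the band, 0.779, was passed elsewhere on chromosome 19 (0.802), on chromosome 17 (0.783) and on chromosome 5 (2.06). On the other chromosomes the highest was lower than in the band. Running medians of the band lay below -0.5 for 20% and above 0.5 for 56.5% of windows. On whole chromosomes the share above 0.5 was 31.8% on chromosome 17 and 30.5% on chromosome 19, the band included, and the share below -0.5 was 22.1% on chromosome 20 and 15.4% on chromosome 1. The 1491 tested genes of chromosome 19 outside the band had a median log2 fold change of 0.30, and 28.6% of them were negative. No test of a difference between the band and other stretches was made.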

How the data were processed

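RNA from 6 HEK293 samples was sequenced by the authors, 3 WT and 3 labelled MUL1(-/-). The deposited tables hold raw counts per exon bin on GRCh38, without normalization. The submitters' processing notes list Trimmomatic 0.36 and STAR 2.5.2b, and the counting program is not given in the sources used here. Counts over all bins ranged from 132849479 to 149317215 in WT and from 127466071 to 128125459 in samples labelled MUL1(-/-). From the tables, a read was taken to count in every bin it touches, without strand, so totals are not numbers of reads.

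Gene counts were computed as sums of a gene's bins. Bins under joined identifiers were assigned to genes by GENCODE 29 exons on the same strand, and 15566 bins that several genes' exons touch were left out. Of unjoined genes in the band, 96.6% had the start and end of GENCODE 29. Genes and bins were each fitted over the whole table with edgeR 4.0.16 in R 4.3.3. The fits used TMM factors (0.946 to 1.03 for genes), filterByExpr, the quasi-likelihood test and Benjamini-Hochberg adjustment. SE was derived as the absolute log2 fold change divided by the square root of the F statistic of that test. Profiles of single libraries are in log2 CPM (prior count 2). The sign change is the zero crossing of the running median of 21 genes, and runs came from least-squares and least-absolute partitions. The main edgeR fit and the DESeq2 fit of gene counts were tested on simulated counts. The running median and the least-squares partition into 2 runs were tested on simulated ratios with a single step. Those ratios had no middle run such as the one from MBD3 to ENSG00000267232, so that test does not cover the location in this band. The bin fits, the other alternatives and the least-absolute partition were not tested on simulated data. Python 3.11.15, pandas 2.3.3 and matplotlib 3.10.9 made tables and figures.

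The members, gene lists and motifs were chosen with earlier results of these data known. Named genes were MUL1, GPX4, PLPPR3 and PIP5K1C, 3 genes on each side of the sign change, the 5 genes at each extreme of the log2 fold change among those averaging 1 CPM or more, and members of 7 role lists where a count needs them. The genes at the ends of the runs, the genes called against their run and those at the limit of the band were named after their values were seen. Alternatives were RLE factors, library totals, no filter, a filter of 1 CPM in 3 samples, the most counted bin of each gene, DESeq2 1.42.0, the replicate block, each sample left out, other windows, bins in place of genes, least-squares partitions and protein-coding genes only. Bins that no other gene touches and the least-absolute partition were added after seeing the data. A floor of 3 counts covers counting error only.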

Additional observations from a re-analysis of the deposited data

How the results depend on the processing

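The sign change lay between 1564132.5 and 1818669 under every alternative tried. The lower side stayed negative and the higher side positive, but the sides were placed from values of these same libraries. The signs of their medians are thus no independent check. The location depends on the method. It was 1767224 in the fit reported, 1612891 with library totals in place of TMM, 1603231 with windows of 11 genes, 1621162.5 with exon bins in place of genes, and 1564132.5 with the least-squares and the least-absolute partition. Leaving out 1 sample at a time gave 1684432.5 to 1818669.

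The median of the lower side, -0.70, was -0.63 with library totals, -0.57 without a filter, -0.61 with the filter of 1 CPM, -0.61 with the most counted bin, -0.59 with DESeq2 and -0.65 over protein-coding genes, and -0.70 to -0.63 with 1 sample left out. The median of the higher side, 0.57, was 0.63 with library totals, 0.64 without a filter, 0.60 with bins that no other gene touches and 0.62 with DESeq2, and 0.55 to 0.61 with 1 sample left out. With the filter of 1 CPM, 13 genes instead of 27 were called higher with an absolute log2 fold change above 1, and 581 bins instead of 937 were called lower, on fewer genes and bins tested. The shares called among all genes and bins under that filter are not given here, so nothing is read from these counts.

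With 1 sample left out, genes called higher numbered 111 to 137 and lower 56 to 69 at an adjusted p under 0.05, and 21 to 32 and 33 to 36 with an absolute log2 fold change above 1 (edgeR's quasi-likelihood test, Benjamini-Hochberg adjustment). Bins called higher numbered 1614 to 1739 and lower 856 to 939. In the main fit 18.8% of all tested genes were called higher and 18.7% lower, 4.23% and 3.87% past a log2 fold change of 1. Of all tested bins it called 15.4% and 14.8%. Such shares are not given for the fits with a sample left out or with the block below. A change in the band under them cannot be told apart from a change over the whole table. The genotypes share replicate numbers in the labels, but the deviations of same-numbered samples from the mean of their genotype had Pearson correlations of only -0.08, 0.16 and 0.10 (15858 genes), and not every sample correlated best with its own number, so the numbers were not taken to pair samples. With the replicate number as a block, 128 genes were called higher and 66 lower, 24 and 36 past a log2 fold change of 1, and 1761 and 939 bins. The crossing stayed at 1767224 and the medians were -0.70 and 0.57, so the block ended none of these results. Of 261 values of the 19 named genes under alternatives, 249 kept their side of the threshold, 8 lost and 4 gained a call, and 0 called values changed sign, while RNU6-1223P, never called, changed sign 1 time. Those with changed calls were ATP8B3, TCF3, ONECUT3 and ENSG00000267007.

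Depth limits the low genes: 78 of the 280 tested genes had a mean below 1 CPM, and 80 genes of the band were not tested. Shared reads between overlapping genes and between neighbouring bins were not resolved by these counts.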
